A study of Mus musculus with 6 samples.

Results

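The genes described here are those of oxidative phosphorylation in mouse epidermal cells, 108 of the 35275 gene identifiers in the deposited table. They were taken by symbol as protein-coding genes for the subunits of respiratory complexes I to V, the Ndufaf assembly factors of complex I and cytochrome c, and 11 pseudogenes with matching symbols were dropped. Of the 108, 95 are encoded in the nucleus and 13 in mitochondrial DNA. Levels are FPKM, fragments per length of transcript and depth of library, and log2 changes are K10-spastin minus control on the log2(FPKM + 1) scale, with their SE. A gene is called when its limma adjusted p (Benjamini-Hochberg over all genes tested) was under 0.05. Most of these genes differed little between the groups. Among the 103 with a mean of at least 1 FPKM, 3 were called higher in K10-spastin (Ndufa4, Cycs and Uqcrq) and 4 lower (Cox6b2, Cox7a2l, Ndufv3 and Ndufa4l2), and no mitochondrially encoded gene was called.

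Oxidative phosphorylation takes place in the inner mitochondrial membrane. Complex I takes electrons from NADH and complex II from succinate, ubiquinone passes them to complex III, and cytochrome c carries them on to complex IV, which reduces oxygen. Complexes I, III and IV pump protons, and complex V, the ATP synthase, uses the proton gradient to make ATP. The complexes other than II are built from products of both genomes, so nuclear and mitochondrial transcripts are made by separate machineries for the same assembly. In epidermis, mitochondria are present in the living layers and are cleared together with the nucleus as cells cornify.

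There were 3 K10-spastin and 3 control libraries of keratinocytes from back skin of CD1 IGS mice at E16.5, each an independent RNA sample. The K10-spastin genotype, K10rtTA;TREspastin, carries a doxycycline-dependent activator under the promoter of keratin 10, a keratin of suprabasal epidermis, and the microtubule-severing enzyme spastin under the activator's target element. Dams received doxycycline chow from E14.5, and per the labels' protocols the cells were sorted for nuclear green fluorescence from a TRE-H2B-GFP transgene. The label of the other group is only "control", and the transgenes of those embryos and the number of embryos behind a library are not stated in the labels. The p-values therefore reflect only the variation among these 6 samples, which may be partly technical.

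Spast stood at 1431, 639 and 213 FPKM in K10-spastin 1 to 3 and at 21.2, 24.0 and 21.4 FPKM in controls 1 to 3, the direction the labels give (log2 change 4.65 ± 0.60, limma adjusted p = 0.00865). The suprabasal keratin Krt10 was abundant throughout, at 16977, 13075 and 17318 FPKM in K10-spastin 1 to 3 and 32513, 23698 and 26802 FPKM in controls 1 to 3, and was called lower in K10-spastin (-0.81 ± 0.20, limma adjusted p = 0.0438). The summed level of the 8 suprabasal markers was 34468 to 56707 FPKM in K10-spastin and 56939 to 69200 FPKM in control, and that of the 7 basal markers was 2533 to 4774 FPKM in K10-spastin and 4147 to 7235 FPKM in control. Krt1 and Krt10 made up most of the suprabasal sum in every library, and single suprabasal markers moved apart from it. Ivl, a precursor of the cornified envelope, was called higher, at 405, 192 and 113 FPKM in K10-spastin 1 to 3 and 18.4, 63.3 and 35.1 FPKM in controls 1 to 3 (2.54 ± 0.55, limma adjusted p = 0.0321). The basal keratin Krt15 was called lower, at 70.0, 449 and 261 FPKM in K10-spastin 1 to 3 and 2095, 1237 and 1835 FPKM in controls 1 to 3 (-3.05 ± 0.62, limma adjusted p = 0.0269). The part of these shifts in the member values was not tested. Depth, read from the spacing of the low values, was 17.3 to 19.6 M (mega) fragments in K10-spastin and 16.01 to 22.5 M in control. For a transcript of 1 kb, 3 fragments correspond to 0.133 to 0.187 FPKM, about the limit of detection.

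The 7 called members were 6.80% of the 103 tested, and over all 11071 genes tested 11.0% were called, 5.14% higher and 5.90% lower. The members' count was therefore below the background. The K10-spastin and control libraries did not overlap for 22 members (21.4%), against 40.4% of all genes tested. At an unadjusted limma p under 0.05 there were 12 members (11.7%), against 31.5% of all genes. The change lay within 0.5 on the log2 scale for 93 members (90.3%), against 67.0% of all genes. No test compared the members with other genes. The median log2 change was -0.01 over the 91 nuclear-encoded members tested, 0.07 over the 12 mitochondrially encoded members tested and -0.09 over all genes.

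**Figure D1:**
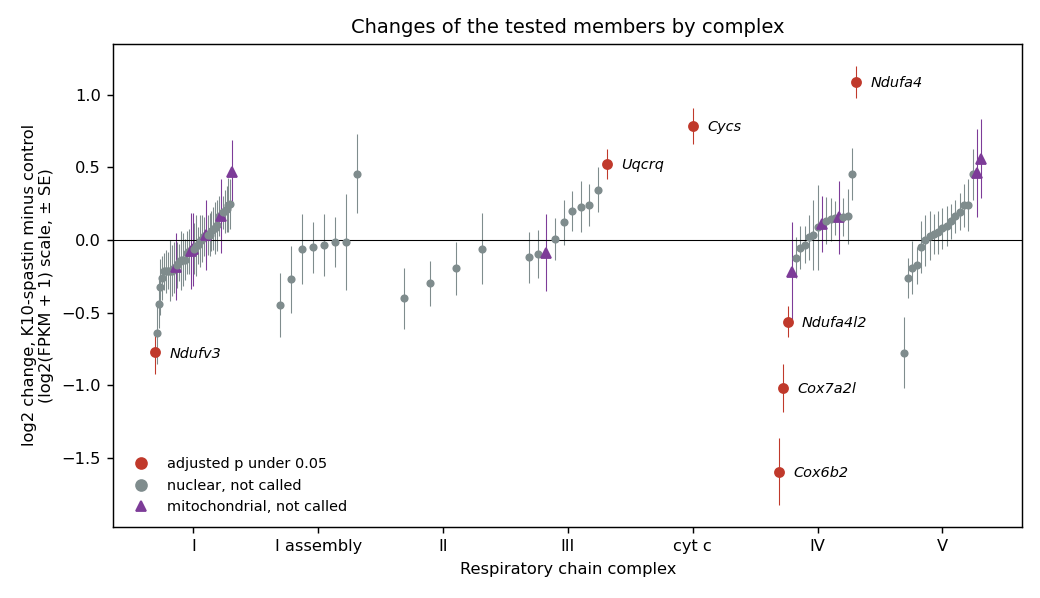
Log2 change (K10-spastin minus control, log2(FPKM + 1) scale) with its SE for the 103 members tested, sorted within each complex, with 3 libraries per group. Red points are the 7 members called, grey points other nuclear-encoded members and purple triangles mitochondrially encoded members. Of the 103, 93 lie within 0.5 of 0. Complex IV holds 4 of the 7 called members, 21.1% of its 19 tested, against 11.0% of all genes tested. This share depends on placing Ndufa4 and Ndufa4l2, both called, with complex IV.

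In complex I, 43 members were counted and 42 tested, and 1 was called. Ndufv3, an accessory subunit of the arm that oxidises NADH, stood at 41.7, 52.5 and 49.99 FPKM in K10-spastin 1 to 3 and at 94.4, 75.5 and 79.0 FPKM in controls 1 to 3. All 3 K10-spastin libraries lay below all controls, with a log2 change of -0.77 ± 0.15 (limma adjusted p = 0.0230). The call was lost when any of the controls was left out, at adjusted p = 0.0718 to 0.0918, and with a replicate block. Its partner in the same arm Ndufv1, which binds the flavin that accepts electrons from NADH and was the most abundant nuclear-encoded subunit of complex I per length, averaged 149 ± 25.9 FPKM in K10-spastin and 156 ± 9.86 FPKM in control (SD, n = 3 each), and the groups overlapped. The 36 nuclear-encoded subunits had a median log2 change of -0.07, with 14 values above 0 and 22 below, and the sign of the median turned under median-of-ratios scaling (0.04, with 20 above 0).

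Some other complex I subunits whose groups did not overlap stayed short of the threshold. Ndufb2, an accessory subunit of the membrane arm, had the smallest p after Ndufv3 and was also the least abundant of the 36. It stood at 1.66, 1.72 and 1.66 FPKM in K10-spastin 1 to 3 and at 2.42, 4.15 and 3.14 FPKM in controls 1 to 3 (log2 change -0.64 ± 0.21, limma adjusted p = 0.0880). Ndufb11, in the same arm, had a log2 change of -0.44 ± 0.17 (limma adjusted p = 0.121). Ndufa1, Ndufa3 and Ndufc1 also did not overlap, with log2 changes between -0.21 and 0.19.

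The Ndufaf assembly factors help to build complex I and are not part of the finished enzyme. All 8 were tested and none was called, and per length they were far less abundant than the subunits, with means over all libraries from 4.499 to 24.3 FPKM and a median of 9.33, against a median of 71.8 FPKM for the nuclear-encoded subunits. Ndufaf3 and Ndufaf4, which act together on the ubiquinone-binding part, differed in direction. Ndufaf3 stood at 2.81, 4.41 and 4.92 FPKM in K10-spastin 1 to 3 and at 6.38, 5.27 and 5.72 FPKM in controls 1 to 3 (-0.45 ± 0.22, limma adjusted p = 0.207). Ndufaf4 stood at 5.63, 10.7 and 9.99 FPKM in K10-spastin 1 to 3 and at 7.67, 5.09 and 5.22 FPKM in controls 1 to 3 (0.46 ± 0.27, limma adjusted p = 0.294). The groups did not overlap for Ndufaf3 and overlapped for Ndufaf4 through K10-spastin 1. The more abundant Ndufaf8 and Ndufaf1 had log2 changes of -0.05 ± 0.17 and -0.04 ± 0.22.

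Complex II, succinate dehydrogenase, has only nuclear-encoded subunits and also works in the tricarboxylic acid cycle. None of its 4 genes was called, and all 4 log2 changes were below 0, except that 1 was above 0 under median-of-ratios scaling. The median was -0.25, against -0.09 over all genes, and lay between -0.33 and -0.14 under the other scalings. Sdhb, the iron-sulphur subunit, stood at 37.7, 62.0 and 58.8 FPKM in K10-spastin 1 to 3 and at 78.7, 62.6 and 65.4 FPKM in controls 1 to 3 (-0.40 ± 0.21, limma adjusted p = 0.236). Sdhc, a membrane anchor, stood at 28.3, 39.9 and 35.5 FPKM in K10-spastin 1 to 3 and at 41.4, 43.5 and 42.0 FPKM in controls 1 to 3 (-0.30 ± 0.16, limma adjusted p = 0.234). In both genes K10-spastin 1 was the lowest library and K10-spastin 2 came close to the lowest control. Sdha, the flavoprotein, and Sdhd, the other anchor, overlapped between the groups, with log2 changes of -0.20 ± 0.18 and -0.06 ± 0.24.

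Complex III passes electrons from ubiquinol to cytochrome c. Of its 10 genes 1 was called, and 7 had a log2 change above 0. The median of its 9 nuclear-encoded genes was 0.20, and 0.10 to 0.30 under the other scalings. Uqcrq, a small subunit near the ubiquinone-binding site, stood at 267, 277 and 271 FPKM in K10-spastin 1 to 3 and at 184, 199 and 184 FPKM in controls 1 to 3. The K10-spastin libraries lay close together and above every control (0.52 ± 0.10, limma adjusted p = 0.0260). The call was lost without K10-spastin 2 (adjusted p = 0.0620), without any of the controls (0.0830 to 0.123), in limma without a trend (0.0510) and with a replicate block. Uqcr10, another small subunit, stood at 131, 184 and 168 FPKM in K10-spastin 1 to 3 and at 137, 122 and 118 FPKM in controls 1 to 3 (0.35 ± 0.16, limma adjusted p = 0.177). It was called in 3 of the 17 alternatives, among them the fit without K10-spastin 1, the only K10-spastin library within the controls. Its catalytic neighbours showed smaller values, with log2 changes of 0.23 ± 0.18 for Cyc1, the cytochrome c1 subunit, 0.20 ± 0.14 for Uqcrfs1, the Rieske iron-sulphur protein, and -0.10 ± 0.16 for the core protein Uqcrc1. Uqcrb, whose groups did not overlap, and Uqcrc2 had log2 changes of 0.24 ± 0.14 and 0.12 ± 0.15, neither called. No pair of subunits was tested against each other.

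Cycs encodes somatic cytochrome c, the small protein that carries electrons between complexes III and IV and that activates caspases when it leaves mitochondria. It stood at 68.1, 81.7 and 77.6 FPKM in K10-spastin 1 to 3 and at 45.4, 43.2 and 41.8 FPKM in controls 1 to 3. The lowest K10-spastin library lay well above the highest control (0.79 ± 0.13, limma adjusted p = 0.0149). The call was lost without control 2 (adjusted p = 0.0711), without control 3 (0.0801) and with a replicate block. Cycs has many processed copies in the genome, and the longest match, Gm10053, is 99.9% identical over 946 of the 3123 bases of the Cycs transcript. The mean of Gm10053 was 0.856 FPKM over all libraries, so little signal was assigned to it.

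The upstream sequences of Cycs, Ndufa4 and Cox7a2l, 3 called genes taken up here and below, are shown because they allow the called genes to be set against the motifs described further on. They are the 250 bases before the annotated gene start, 5′ to 3′, from RefSeq (GRCm38.p6), all on the minus strand, at chr6:50566570-50566819 (Cycs), chr6:11907451-11907700 (Ndufa4) and chr17:83514334-83514583 (Cox7a2l). Capitals mark TGACGTCA, the motif bound by CREB.
Cycs: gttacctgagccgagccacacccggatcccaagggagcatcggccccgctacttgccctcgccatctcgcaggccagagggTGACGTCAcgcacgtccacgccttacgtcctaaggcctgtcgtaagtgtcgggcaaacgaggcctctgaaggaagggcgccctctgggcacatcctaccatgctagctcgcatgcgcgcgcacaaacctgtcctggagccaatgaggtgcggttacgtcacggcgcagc
Ndufa4: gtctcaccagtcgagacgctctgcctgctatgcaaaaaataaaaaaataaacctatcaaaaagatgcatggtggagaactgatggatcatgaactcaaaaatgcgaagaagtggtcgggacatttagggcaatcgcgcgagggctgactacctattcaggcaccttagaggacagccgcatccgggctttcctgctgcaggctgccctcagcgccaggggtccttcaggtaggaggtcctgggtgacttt
Cox7a2l: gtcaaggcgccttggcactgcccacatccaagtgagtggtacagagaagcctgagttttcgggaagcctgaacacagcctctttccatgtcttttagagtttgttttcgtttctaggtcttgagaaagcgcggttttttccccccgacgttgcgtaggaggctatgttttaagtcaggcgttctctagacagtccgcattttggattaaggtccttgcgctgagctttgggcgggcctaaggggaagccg
The Cycs window holds 1 match, which begins 169 bases before the start, and the Ndufa4 and Cox7a2l windows hold none of the motifs searched.

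Complex IV, cytochrome c oxidase, held 4 of the 7 called members, 1 higher and 3 lower, among 19 tested of 23. That was 21.1% of the 19 tested, against 11.0% of all genes tested, and the difference was not tested. The share depends on placing Ndufa4 and Ndufa4l2, both called, with complex IV. Ndufa4l2 was placed there only as a relative of Ndufa4. Cox7a2l, also called, was counted there by its symbol. Ndufa4 was named as a complex I subunit and later found in complex IV, and is counted here with complex IV. It stood at 189, 203 and 192 FPKM in K10-spastin 1 to 3 and at 94.9, 93.6 and 85.3 FPKM in controls 1 to 3. The K10-spastin mean was 2.14 times the control mean, and the groups were far apart relative to their spread (1.09 ± 0.11, limma adjusted p = 0.00469). Ndufa4 was the only member called in all 17 alternatives, with adjusted p up to 0.0339.

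Ndufa4l2, a relative of Ndufa4 that is induced in hypoxia in other cells, was the most abundant nuclear-encoded gene placed with complex IV. It stood at 644, 611 and 582 FPKM in K10-spastin 1 to 3 and at 929, 918 and 866 FPKM in controls 1 to 3. All K10-spastin libraries were below all controls (-0.56 ± 0.11, limma adjusted p = 0.0241). The call was lost without control 1, 2 or 3 (adjusted p = 0.0820, 0.107 and 0.0988), without K10-spastin 2 or 3 (0.0547 and 0.0504), with no filter (0.0625) and with median-of-ratios scaling (0.0761). A replicate block also lost the call. Exons of Ndufa4l2 and Shmt2, a serine hydroxymethyltransferase of mitochondria on the opposite strand, overlap by 32 bases in GENCODE M21. Shmt2 stood at 68.9, 119 and 95.4 FPKM in K10-spastin 1 to 3 and at 74.0, 54.6 and 58.2 FPKM in controls 1 to 3, and the strandedness of the libraries is not stated in the labels, so reads in the overlap cannot be assigned.

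Cox7a2l encodes a factor that joins complexes III and IV into supercomplexes. It stood at 32.9, 46.6 and 43.3 FPKM in K10-spastin 1 to 3 and at 77.2, 92.9 and 80.3 FPKM in controls 1 to 3. Every K10-spastin library was well below the lowest control (-1.02 ± 0.17, limma adjusted p = 0.0158), and the call was lost without control 2 (adjusted p = 0.0711) and without control 3 (0.0700). The predicted gene Gm6969 is identical to Cox7a2l over 201 of its 1129 bases and ran the other way, at 14.2, 22.4 and 19.4 FPKM in K10-spastin 1 to 3 and 8.19, 12.6 and 9.36 FPKM in controls 1 to 3. Reads from the shared stretch could be counted for either gene.

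Cox6b2 is the testis isoform of Cox6b1, a subunit on the side of the enzyme where cytochrome c binds. It was low throughout, at 0.730, 1.19 and 0.608 FPKM in K10-spastin 1 to 3 and at 5.35, 3.43 and 4.97 FPKM in controls 1 to 3. The groups did not overlap (-1.595 ± 0.23, limma adjusted p = 0.0117), and the call was lost without control 3 (adjusted p = 0.0619). The widely expressed Cox6b1 stood at 245, 287 and 247 FPKM in K10-spastin 1 to 3 and at 245, 223 and 233 FPKM in controls 1 to 3, so Cox6b2 was a minor part of the pair in every library.

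**Figure D2:**
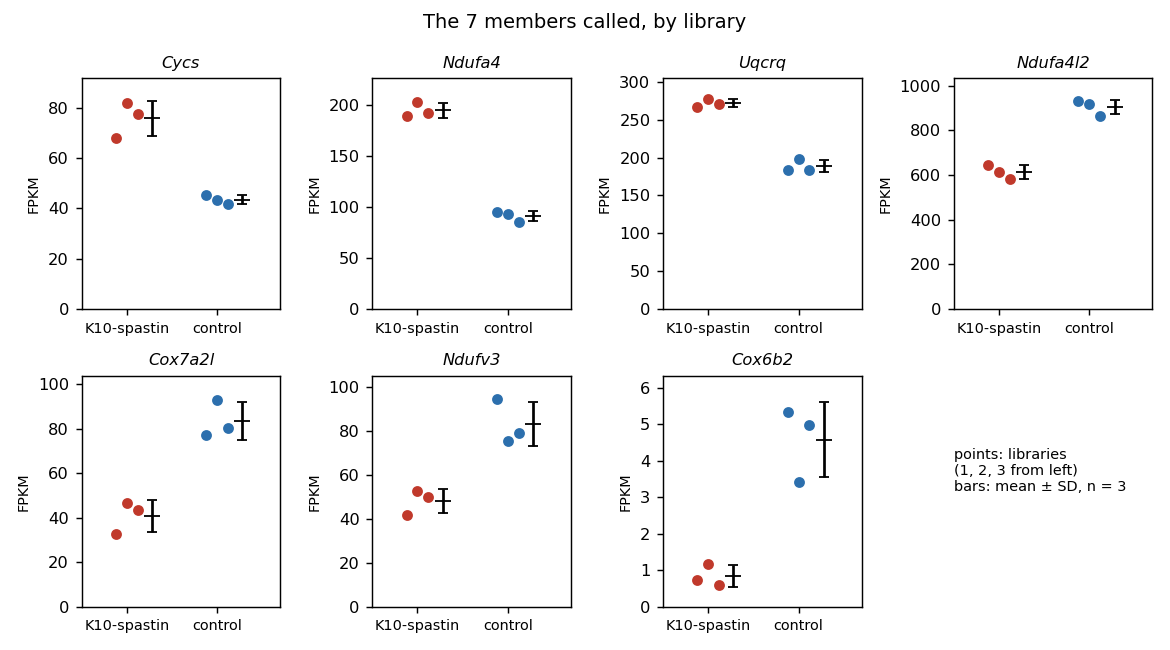
FPKM of the 7 called members in each library, K10-spastin (red) left of control (blue), with mean ± SD beside the points (n = 3 each) and each vertical axis starting at 0. In all 7 panels the groups are apart; Ndufa4, Cycs and Uqcrq are higher in K10-spastin, and Ndufa4l2, Cox7a2l, Ndufv3 and Cox6b2 are lower.

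The remaining nuclear-encoded subunits of complex IV varied less between groups. Cox5a, which lies on the matrix side, stood at 42.9, 64.4 and 51.9 FPKM in K10-spastin 1 to 3 and at 40.8, 33.2 and 40.3 FPKM in controls 1 to 3. The groups did not overlap, and the value stayed short of the threshold (0.46 ± 0.18, limma adjusted p = 0.134). Cox4i1, the common form of a subunit that regulates the enzyme, averaged 281 ± 48.1 FPKM in K10-spastin and 289 ± 5.24 FPKM in control (SD, n = 3 each), a log2 change of -0.06 ± 0.15. The common forms Cox6a1, Cox7a2, Cox7b and Cox8a had log2 changes between -0.12 and 0.16, none called.

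Several complex IV subunits have forms restricted to muscle, lung or testis, and these were far less abundant than the common forms. The muscle forms Cox6a2 and Cox7a1 averaged 3.07 ± 0.349 and 3.64 ± 0.949 FPKM in K10-spastin and 3.06 ± 1.07 and 3.47 ± 1.37 FPKM in control (SD, n = 3 each), with log2 changes of 0.03 ± 0.24 and 0.09 ± 0.29. The muscle form Cox8b had at most 1.59 FPKM in K10-spastin and 1.17 FPKM in control, and Cox4i2, a lung form that responds to oxygen, at most 1.12 FPKM in K10-spastin and 0.342 FPKM in control. Cox7b2 and Cox8c, both testis forms, were listed at 0 in all 6 libraries. These 4 genes were under a mean of 1 FPKM and were not tested.

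Markers of tissues rich in mitochondria were low with 1 exception. The 9 muscle markers summed to 11.1 to 14.2 FPKM in K10-spastin and 16.1 to 25.7 FPKM in control, with Acta1, Ckm, Myh3 and Myh8 each under 1 FPKM in every library. Of these Tnni2, a troponin of fast muscle, was called lower, at 2.22, 2.53 and 2.38 FPKM in K10-spastin 1 to 3 and 8.81, 7.99 and 9.56 FPKM in controls 1 to 3 (-1.53 ± 0.17, limma adjusted p = 0.00546). Of the 5 brown adipocyte markers Fabp4 and Cidea were called higher, and the list summed to 16.4 to 157 FPKM in K10-spastin and 0.978 to 1.96 FPKM in control. Fabp4 stood at 126, 18.7 and 10.5 FPKM in K10-spastin 1 to 3 and at 0.908, 0.686 and 1.42 FPKM in controls 1 to 3. Cidea stood at 31.4, 9.09 and 5.54 FPKM in K10-spastin 1 to 3 and at 0, 0.322 and 0.467 FPKM in controls 1 to 3. The 3 other markers were near 0, with Adipoq listed at 0 in all libraries, Plin1 at no more than 0.0707 FPKM and Ucp1 at no more than 0.351 FPKM. The 7 fibroblast markers summed to 0.791 to 3.03 FPKM in K10-spastin and 6.44 to 42.3 FPKM in control, with 1 called lower. The 7 markers of Merkel cells and nerve summed to 9.13 to 40.8 FPKM in K10-spastin and 4.02 to 5.41 FPKM in control, with 1 called higher. The 7 erythroid markers summed to 17.4, 6.34 and 3.79 FPKM in K10-spastin 1 to 3 and to 7.66, 76.4 and 331 FPKM in controls 1 to 3. The 6 melanocyte markers summed to 2.63, 24.4 and 3.04 FPKM in K10-spastin 1 to 3 and to 4.44, 9.71 and 16.6 FPKM in controls 1 to 3. No gene of these last 2 lists was called. The part of other cells in the member values was not tested, and in these bulk libraries fewer cells of a type cannot be told apart from less RNA per cell.

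Complex V held 19 members, all tested, and none was called. The median log2 change of its 17 nuclear-encoded genes was 0.05, and turned to -0.05 under quantile normalization. Atp5b, the beta subunit that makes ATP, was the most abundant nuclear-encoded member of all. It stood at 1468, 2028 and 1760.2 FPKM in K10-spastin 1 to 3 and at 1527, 1476 and 1418 FPKM in controls 1 to 3 (0.24 ± 0.15, limma adjusted p = 0.314). Atp5a1, the alpha subunit, averaged 727 ± 145 FPKM in K10-spastin and 702 ± 40.8 FPKM in control (SD, n = 3 each), a log2 change of 0.03 ± 0.17. Both overlapped between groups, with K10-spastin 1 within or below the controls and K10-spastin 2 above them.

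The ring that turns in the membrane is made of identical c subunits from 3 genes, and these differed from one another. Atp5g3 stood at 238, 357 and 288 FPKM in K10-spastin 1 to 3 and at 242, 196 and 201 FPKM in controls 1 to 3 (0.45 ± 0.18, limma adjusted p = 0.127). Atp5g2 stood at 159.9, 261 and 204 FPKM in K10-spastin 1 to 3 and at 245, 222 and 235 FPKM in controls 1 to 3 (-0.19 ± 0.18, limma adjusted p = 0.513). Atp5g1 was the least abundant of the 3, at 51.1 ± 4.55 FPKM in K10-spastin and 61.4 ± 5.97 FPKM in control (SD, n = 3 each), with groups that did not overlap (-0.26 ± 0.14, limma adjusted p = 0.232). The predicted gene Gm10039 is 99.8% identical to Atp5g1 over 411 of its 4715 bases, and stood at 14.6, 34.9 and 30.8 FPKM in K10-spastin 1 to 3 and 20.1, 15.7 and 8.52 FPKM in controls 1 to 3. Reads from that stretch could be counted for either gene, so the value of Atp5g1 is uncertain. Atp5s, coupling factor B, came closest to the threshold in complex V, at 1.44, 1.86 and 3.18 FPKM in K10-spastin 1 to 3 and at 3.80, 4.54 and 4.52 FPKM in controls 1 to 3. Its groups did not overlap (-0.78 ± 0.24, limma adjusted p = 0.0789), and it was called when K10-spastin 3, its highest K10-spastin library, was left out. The inhibitor of the enzyme in reverse, Atpif1, is outside the symbols used for the members; it stood at 21.0, 26.4 and 28.6 FPKM in K10-spastin 1 to 3 and at 35.7, 31.4 and 34.4 FPKM in controls 1 to 3 (-0.41 ± 0.16, limma adjusted p = 0.121).

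The mitochondrial genome encodes 7 subunits of complex I, 1 of complex III, 3 of complex IV and 2 of complex V, all transcribed as long precursors that are then cut. None of the 12 tested was called, and the groups overlapped in all 12. The most abundant, mt-Co1, the catalytic subunit of complex IV, stood at 3969.8, 6361 and 6888 FPKM in K10-spastin 1 to 3 and at 4689, 6282 and 4271 FPKM in controls 1 to 3. K10-spastin 1 was the lowest library, and K10-spastin 2 and control 2 were alike (0.16 ± 0.25, limma adjusted p = 0.713). The cytochrome b gene mt-Cytb averaged 3926 ± 1256 FPKM in K10-spastin and 4068 ± 814 FPKM in control (SD, n = 3 each), a log2 change of -0.09 ± 0.27. The largest values were those of mt-Atp8 (0.56 ± 0.27, limma adjusted p = 0.201) and mt-Nd1 (0.47 ± 0.22, limma adjusted p = 0.193).

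mt-Nd1, a subunit near the ubiquinone channel of complex I, stood at 2959, 3302 and 4002 FPKM in K10-spastin 1 to 3 and at 2131, 3336 and 2069.6 FPKM in controls 1 to 3. Control 2 lay among the K10-spastin libraries. As a share of the mitochondrially encoded FPKM of its own library, mt-Nd1 held 21.6%, 17.3% and 17.1% in K10-spastin 1 to 3 and 14.0%, 15.4% and 13.9% in controls 1 to 3, so the groups did not overlap on that scale. mt-Cytb held 19.1%, 21.3% and 21.8% in K10-spastin 1 to 3 and 24.2%, 23.1% and 23.6% in controls 1 to 3, lower in every K10-spastin library. These shares were taken up after their values were seen and have no test. Their total includes genes of uncertain level, described below.

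The mitochondrially encoded genes together held 2.13%, 2.91% and 3.61% of all FPKM in K10-spastin 1 to 3 and 2.39%, 3.40% and 2.37% in controls 1 to 3. The means were 2.88% ± 0.740 in K10-spastin and 2.72% ± 0.589 in control (SD, n = 3 each), with p = 0.9 in a two-sided exact permutation test, which cannot go below 0.1 with 3 libraries against 3. The nuclear-encoded members held 1.68%, 2.20% and 2.004% in K10-spastin 1 to 3 and 2.04%, 1.92% and 1.89% in controls 1 to 3. The summed mitochondrial over the summed nuclear level was 1.27, 1.32 and 1.80 in K10-spastin 1 to 3 and 1.17, 1.77 and 1.25 in controls 1 to 3. On each of these measures the groups overlapped, and the spread within a group was larger than the difference between the means. The levels of at least 6 of the 13 mitochondrially encoded genes are uncertain because of near-identical nuclear copies, described below. These sums hold the values as deposited and may not be the full mitochondrially encoded share.

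**Figure D3:**
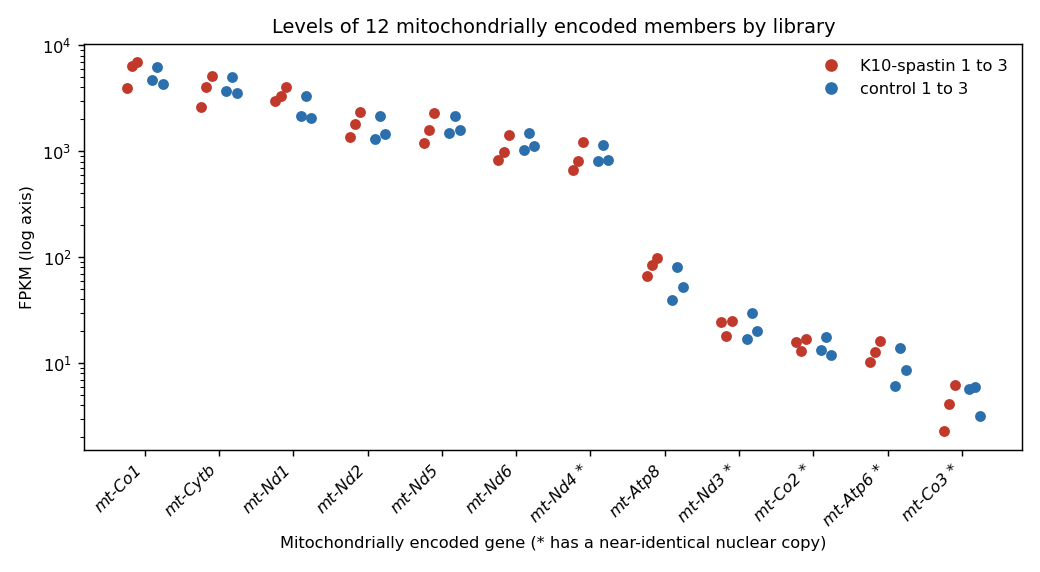
FPKM (log axis) of the 12 mitochondrially encoded members tested, K10-spastin libraries 1 to 3 (red) left of controls 1 to 3 (blue) for each gene, ordered by mean level; an asterisk marks a near-identical nuclear copy. The groups overlap in every gene. The lowest are mt-Co2, mt-Co3, mt-Atp6 and mt-Nd3, next above them is mt-Atp8, which has no asterisk, and the other genes lie far higher.

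The levels of the mitochondrially encoded genes spanned a wide range, and the 5 lowest belonged to genes with a near-identical copy in nuclear DNA. Such copies, at least 99% identical over at least 60% of the transcript, were found among annotated transcripts for 6 of the 13 genes. Of these, mt-Nd4 averaged 912 FPKM over all libraries, mt-Nd3 22.5, mt-Co2 14.8, mt-Atp6 11.3, mt-Co3 4.56 and mt-Nd4l 0.0961, the last too low to test. The 7 genes for which none was found had means from 70.1 FPKM (mt-Atp8) to 5410.1 FPKM (mt-Co1). Copies that are not annotated were not searched for. Of these 7, mt-Atp8 lay far below the rest, the next lowest being mt-Nd6 at 1144 FPKM. It overlaps mt-Atp6, which has a copy, by 43 bases. Whether mt-Atp8 shares reads with a nuclear copy was not tested. The predicted gene Gm28438 is the copy of mt-Nd3, and it was given more signal than mt-Nd3 in 5 of 6 libraries.

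The first 40 bases of both transcripts are shown because they hold the only difference between mt-Nd3 and Gm28438 in 345 bases compared. They are from GENCODE M21 (GRCm38), at chrM:9459-9498 on the plus strand for mt-Nd3 and at chr1:24613080-24613119 on the minus strand for Gm28438. The capital marks the differing base, T3C, counted from 1 at the 5′ end of mt-Nd3.
mt-Nd3: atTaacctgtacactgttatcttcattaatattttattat
Gm28438: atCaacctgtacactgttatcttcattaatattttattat
Gm28438 stood at 21.9, 38.2 and 42.1 FPKM in K10-spastin 1 to 3 and at 39.7, 54.5 and 37.5 FPKM in controls 1 to 3. The corresponding copy of mt-Co2, Gm28661, stood at 12.4, 1.43 and 27.7 FPKM in K10-spastin 1 to 3 and at 2.02, 1.10 and 0.621 FPKM in controls 1 to 3, with K10-spastin 2 among the controls (2.17 ± 0.82, limma adjusted p = 0.121). Reads of such pairs cannot be told apart over most of their length, so the levels of these members are uncertain. Without them, the median log2 change of the mitochondrially encoded genes was 0.16 over 7 genes, mt-Atp8 among them.

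The nuclear-encoded members shared an offset within a library, and the 3 K10-spastin libraries were offset from one another. Relative to the control mean, the median log2 difference of the 91 nuclear-encoded members was -0.24, 0.17 and 0.06 in K10-spastin 1 to 3, and 0.06, -0.01 and -0.05 in controls 1 to 3. Over all genes tested the medians were -0.30, 0.04 and -0.02 in K10-spastin 1 to 3, so the low position of K10-spastin 1 was also that of the table as a whole. In K10-spastin 1, 64 of the 91 members were below all 3 controls and 7 above all 3. In K10-spastin 2, 16 were below and 54 above, and in K10-spastin 3, 20 were below and 39 above. Without K10-spastin 1, 8 members were called, the same 7 and Uqcr10, and the median of the nuclear-encoded members was 0.13, against 0.00 over all genes.

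**Figure D4:**
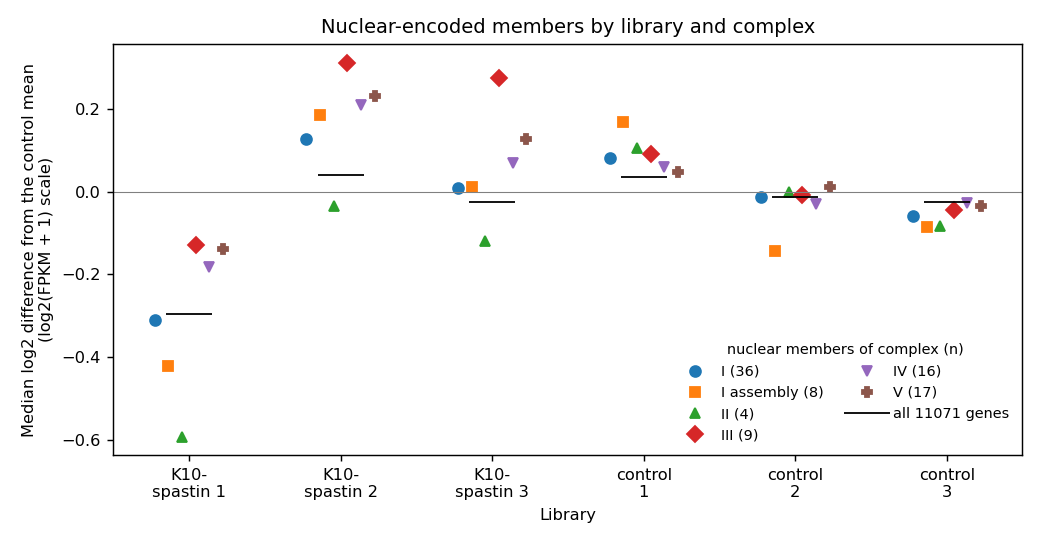
Median log2 difference from the control mean (log2(FPKM + 1) scale) of the nuclear-encoded members of each complex in each library, K10-spastin left of control; the black bar is the median over all 11071 genes tested. In K10-spastin 1 every complex shown lies below 0; in K10-spastin 2 and 3 complex III is the highest and complex II the lowest.

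The 5 complexes stood in the same order in all 3 K10-spastin libraries, from complex III at the top through V, IV and I to II. The nuclear-encoded members of complex III had medians of -0.13, 0.31 and 0.27 in K10-spastin 1 to 3, and those of complex V had -0.14, 0.23 and 0.13. The complex II genes had medians of -0.59, -0.03 and -0.12 in the same libraries, below the median of all genes in each of them. The nuclear-encoded subunits of complex I had -0.31, 0.13 and 0.01, and those of complex IV -0.18, 0.21 and 0.07. In the controls these medians lay between -0.08 and 0.11. The complexes differ in their number of genes, from 4 to 36, and were not tested against each other.

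Ratios of related genes within a library do not depend on the library's scale, and were chosen after the values were seen, so they are given without a test. Ndufa4 over Ndufa4l2 was 0.294, 0.333 and 0.330 in K10-spastin 1 to 3 and 0.102, 0.102 and 0.0985 in controls 1 to 3. Cox7a2l over Cox7a2, the common subunit it resembles, was 0.412, 0.449 and 0.404 in K10-spastin 1 to 3 and 0.867, 1.02 and 0.984 in controls 1 to 3. In both pairs the 3 libraries of a group lay close together and the groups were well apart, although K10-spastin 1 was offset from K10-spastin 2 and 3 in level.

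Other pairs that share an enzyme also separated the groups. Cycs over its docking partner Cyc1 was 0.506, 0.395 and 0.419 in K10-spastin 1 to 3 and 0.281, 0.308 and 0.297 in controls 1 to 3. Ndufv3 over Ndufv1 was 0.343, 0.304 and 0.328 in K10-spastin 1 to 3 and 0.581, 0.471 and 0.547 in controls 1 to 3. Atp5g3 over Atp5g2 was 1.49, 1.37 and 1.41 in K10-spastin 1 to 3 and 0.985, 0.883 and 0.856 in controls 1 to 3, although neither gene was called. Cox6b2 was 0.297%, 0.413% and 0.246% of Cox6b1 in K10-spastin 1 to 3 and 2.19%, 1.53% and 2.13% in controls 1 to 3. Among the mitochondrially encoded genes, mt-Nd1 over mt-Cytb was 1.13, 0.815 and 0.783 in K10-spastin 1 to 3 and 0.578, 0.667 and 0.588 in controls 1 to 3. A ratio shows that 2 genes changed unequally and does not say which of them changed.

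**Figure D5:**
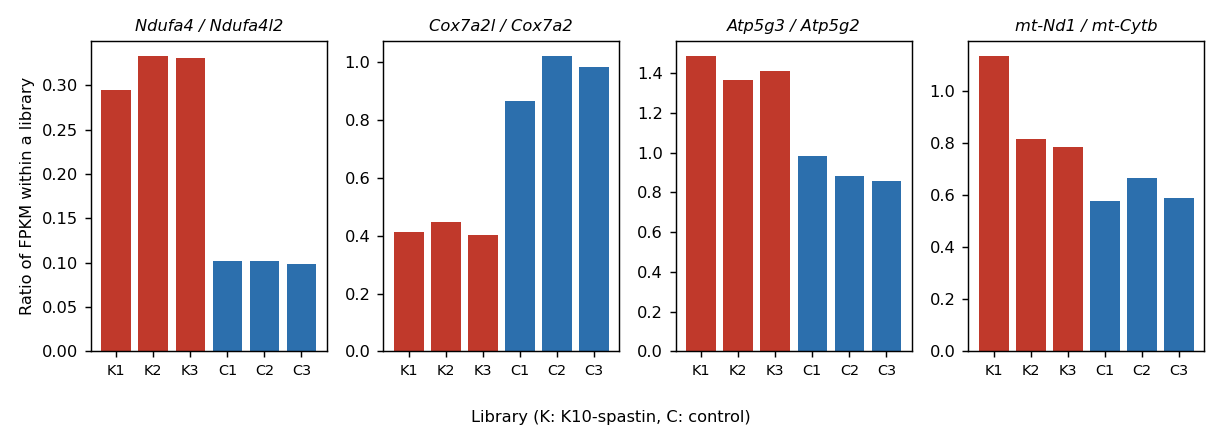
Ratio of FPKM of gene pairs within each library (K, K10-spastin 1 to 3, red; C, controls 1 to 3, blue), each axis starting at 0. The groups are apart in all 4 pairs; Ndufa4 over Ndufa4l2, Atp5g3 over Atp5g2 and mt-Nd1 over mt-Cytb are higher in K10-spastin, and Cox7a2l over Cox7a2 is lower.

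Many nuclear genes of the respiratory chain are known targets of the transcription factors NRF1, GABP, YY1 and CREB. Promoters were available for 75 of the 95 nuclear-encoded members, 80 windows of 250 bases, and were searched on both strands. The NRF1 motif of 10 letters, spelled in capitals in the windows further on, was in 5 of the 80 (6.25%), against 0.782% of all 32851 promoters in the table. With its base 5 left free, a form that includes every match of the stricter one, it was in 15 (18.8%), against 3.74% of all. The CREB motif TGACGTCA was in 5 (6.25%; Cycs, Ndufa10, Ndufa11, Ndufb2 and Uqcrfs1), against 1.55%. The GABP motif CCGGAAGT was in 3 (3.75%), against 2.88%, and the YY1 motif AAGATGGC was in 1 (1.25%), against 1.56%. A match describes the letters of the window and is not evidence of binding.

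The 5 windows with the strict NRF1 motif are shown because they are the members most plainly marked by this shared sequence. Each is 30 bases from RefSeq (GRCm38.p6), 5′ to 3′ on the gene's strand, with the motif in capitals, at chr15:102671070-102671099 on the minus strand (Atp5g2), chr5:108434430-108434459 on the minus strand (Atp5k), chr5:115349101-115349130 on the minus strand (Cox6a1), chr17:56717692-56717721 on the plus strand (Ndufa11) and chr4:24897960-24897989 on the plus strand (Ndufaf4).
Atp5g2: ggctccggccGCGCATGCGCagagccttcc
Atp5k: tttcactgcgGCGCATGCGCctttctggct
Cox6a1: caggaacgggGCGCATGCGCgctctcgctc
Ndufa11: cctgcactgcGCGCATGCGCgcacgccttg
Ndufaf4: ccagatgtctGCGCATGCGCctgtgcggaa
None of these 5 genes was called. Their log2 changes were -0.19 ± 0.18 for Atp5g2, 0.24 ± 0.18 for Atp5k, a small subunit of complex V, 0.02 ± 0.16 for Cox6a1, -0.14 ± 0.18 for Ndufa11 and 0.46 ± 0.27 for Ndufaf4. Nrf1 itself stood at 18.4, 24.0 and 22.1 FPKM in K10-spastin 1 to 3 and at 15.4, 12.3 and 12.8 FPKM in controls 1 to 3. Its groups did not overlap and it stayed short of the threshold (0.63 ± 0.17, limma adjusted p = 0.0558). It is outside the rule for named genes and was taken up after its value was seen.

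Around the members, 10 lists of mitochondrial genes gave 244 further genes tested, of which 5 were called higher and 9 lower (5.74%, against 11.0% of all genes), with a median log2 change of 0.02. No gene was called among the 31 assembly factors of complexes II to V, the 23 genes of mitochondrial DNA replication, transcription and RNA maturation or the 41 genes of the mitochondrial ribosome and its factors. Among the 11 assembly and supercomplex factors of complex I outside the Ndufaf genes, Acad9 was called lower (-0.57 ± 0.13, limma adjusted p = 0.0390), at 138, 151 and 174 FPKM in K10-spastin 1 to 3 and 229, 250.4 and 211 FPKM in controls 1 to 3. Among 17 regulators of mitochondrial biogenesis, Pparg, a nuclear receptor of lipid metabolism, was called higher, at 6.14, 3.52 and 2.22 FPKM in K10-spastin 1 to 3 and 0.0981, 0.172 and 0.09996 FPKM in controls 1 to 3 (2.07 ± 0.30, limma adjusted p = 0.0120). Myc, a transcription factor of growth, was called lower (-0.93 ± 0.18, limma adjusted p = 0.0248).

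Among the enzymes that feed the chain, 3 of 23 genes of the tricarboxylic acid cycle and pyruvate dehydrogenase (13.0%) and 2 of 16 genes of fatty acid oxidation (12.5%) were called, all lower. These shares are near the 11.0% of all genes, so the counts are no result about these enzymes as groups. Of the 23 genes of the tricarboxylic acid cycle and pyruvate dehydrogenase, Pdk2, a kinase that switches pyruvate dehydrogenase off, stood at 0.246, 1.47 and 3.20 FPKM in K10-spastin 1 to 3 and at 9.68, 10.3 and 9.99 FPKM in controls 1 to 3 (-2.23 ± 0.41, limma adjusted p = 0.0201). Its opponent Pdp1, a phosphatase, was also called lower (-0.79 ± 0.20, limma adjusted p = 0.0492), a call lost in 11 of the 16 alternatives in which it was tested. Idh2, the NADP-dependent isocitrate dehydrogenase of mitochondria, had a log2 change of -0.83 ± 0.20 (limma adjusted p = 0.0435). Of the 16 genes of fatty acid oxidation, Acadm, the medium-chain dehydrogenase of beta-oxidation, stood at 31.7, 37.3 and 56.8 FPKM in K10-spastin 1 to 3 and at 81.0, 109 and 106 FPKM in controls 1 to 3 (-1.25 ± 0.23, limma adjusted p = 0.0213). Echs1, which acts after it, had a log2 change of -0.79 ± 0.19 (limma adjusted p = 0.0405). In these genes every K10-spastin library was below every control.

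Of the other lists, import and inner membrane structure (32 genes) had 1 call, Hspd1, the chaperonin of the matrix, at 440.0, 633 and 567 FPKM in K10-spastin 1 to 3 and 330.0, 285 and 259.7 FPKM in controls 1 to 3 (0.90 ± 0.17, limma adjusted p = 0.0221). Fusion, fission and turnover (26 genes) had 1 call, Pink1, a kinase that marks damaged mitochondria, at 7.95, 14.3 and 17.7 FPKM in K10-spastin 1 to 3 and 29.5, 31.6 and 34.6 FPKM in controls 1 to 3 (-1.26 ± 0.27, limma adjusted p = 0.0313). Of 24 genes of quinone and haem synthesis and mitochondrial antioxidants, 3 were called higher and 1 lower. Haem is the cofactor of cytochrome c and of complexes II, III and IV. Alas1, the first enzyme of haem synthesis, and Cpox, a later step, were called higher (0.88 ± 0.15 and 1.02 ± 0.14, limma adjusted p = 0.0173 and 0.0114). Ppox, which acts directly after Cpox, was called lower, at 3.26, 7.60 and 7.37 FPKM in K10-spastin 1 to 3 and 17.4, 17.8 and 18.5 FPKM in controls 1 to 3 (-1.48 ± 0.28, limma adjusted p = 0.0228). The third gene called higher was the glutaredoxin Glrx2 (0.66 ± 0.14, limma adjusted p = 0.0299), which is outside the rule for named genes and was taken up after its value was seen. Many of the calls in these lists were lost under some of the 17 alternatives: Acad9, Idh2 and Echs1 in 7 each, Hspd1 and Pink1 in 5 each, Myc, Pdk2 and Ppox in 4 each, Acadm and Alas1 in 3 each, and Cpox in 2. Pparg was lost in 2 of the 16 alternatives in which it was tested.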

How the data were processed

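Per the labels' protocols, RNA of 3 K10-spastin and 3 control samples of sorted cells was sequenced. The deposited table holds FPKM, computed by the authors, per Ensembl identifier and library; the submitters' processing notes name CASAVA and TopHat2. Not given in the sources used here are the counter, build, annotation and strandedness, and overlapping genes and near-identical copies may share reads. Symbols were matched for 34490 of 35275 identifiers.

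The 11071 genes whose mean reached 1 FPKM were compared on log2(FPKM + 1), which understates changes of low genes, with limma 3.58.1 in R 4.3.3 (lmFit and trended eBayes, no covariate), with two-sided p-values adjusted by Benjamini-Hochberg. The FPKM table was used as deposited, and no count test was run. Depth was read from the step of low values, up to 20 fragments, of genes with 1 transcript, of which 90.5% to 91.5% were whole within 0.05; it covers counting error only. The fit was checked on simulated data with known changes. It called 33% of the 2-fold changes and 84% of the 4-fold changes, and 7 of its 124 calls were on unchanged genes. In the simulation a small share of 10915 genes was changed, none at the lowest or highest levels. Noise was independent between genes, with no offset shared within a library, so these percentages may not hold for the real libraries.

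Named were all called members, every mitochondrially encoded member, tissue isoforms, and the 2 smallest p and 2 highest means per complex. Per list, the called genes with the 3 smallest p and the 2 highest means were named. Not all genes under this rule are reported here. Of the others, some are said to be taken up after their values were seen or come from counts of non-overlapping groups. Some, such as Uqcrfs1, Uqcrc1 and Sdhd, were set beside named genes without a rule. The members, lists and rules were chosen with earlier results of these data known. Complexes were assigned by symbol, except that Ndufa4 and Ndufa4l2 were put with complex IV. Copies were sought among GENCODE M21 transcripts with BLAST 2.17.0 at 90% identity over at least 200 bases or 60% of the transcript. Alternatives covered pseudocounts, filters, scaling, variance models, a replicate block and each library left out; 1, the median without members that have near-identical copies, was added after the data were seen. Tables and figures were made with pandas 2.3.3, numpy 2.4.6 and matplotlib 3.10.9 in Python 3.11.15.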

Additional observations from a re-analysis of the deposited data

How the results depend on the processing

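Of the members, 3 were called higher and 4 lower. Median-of-ratios scaling gave 6 higher (adding Atp5g3, Cox5a and Uqcr10), and array weights gave 13. Leaving out each library in turn gave 1 to 4 higher and 0 to 4 lower, with the fewest without control 3, where Ndufa4 alone was called. Over all genes, 569 were higher and 653 lower; the counts were 319 and 348 with no filter, 414 lower with a filter at 5 FPKM, 1535 and 1771 with array weights, and 114 to 687 higher and 31 to 707 lower with a library left out, fewest without control 3. Cox6b2 was not tested at 5 FPKM. The share of members called stayed below that of all genes except with no filter (5.66% against 3.18%) and without control 2 (1.92% against 1.85%).

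Replicate numbers did not pair the samples: same-numbered deviations correlated at -0.13, -0.38 and -0.05. With the replicate block, 1 member was higher and 2 lower (Ndufa4, Cox7a2l and Cox6b2), and over all genes 274 were higher and 218 lower.

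The median change of nuclear-encoded members ranged from -0.09 without K10-spastin 2 to 0.13 without K10-spastin 1, and that of mitochondrially encoded members from -0.04 to 0.26. The share difference ranged from -0.20 to 0.54 percentage points. Median-of-ratios scaling moved the median of all genes to 0.01, against -0.09. Over 72 named genes and 17 alternatives, 1113 of 1215 values stayed on their side of the threshold (55 uncalled ones among them changed sign), 88 calls were lost, 14 were gained and 0 reversed. The cause of these changes was not tested. With 3 libraries per group and unknown numbers of embryos, a member that was not called is not shown to be alike in both groups, and members near 1 FPKM rest on few fragments.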
